A study of Mus musculus with 21 samples.

Results

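The BCL2 family genes that set the threshold for mitochondrial cell death were examined in IgA+ plasma cells (PCs) of the mouse small intestine. The 10 genes were the rows of the count table whose gene name was Mcl1, Bcl2, Bcl2l1, Bcl2l11, Bax, Bak1, Bbc3, Pmaip1, Bmf or Bid, out of 53801 genes in the table. All 10 passed the count minimum (at least 10 counts summed over all libraries) and were among the 20256 genes tested.

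Proteins of the family decide whether the outer mitochondrial membrane stays intact. The pro-survival proteins MCL1, BCL2 and BCL-XL (encoded by Bcl2l1) hold the effectors BAX and BAK in check, and the BH3-only proteins, among them BIM (Bcl2l11), PUMA (Bbc3), NOXA (Pmaip1), BMF and BID, release the effectors by binding the pro-survival proteins or by engaging the effectors directly. Freed BAX and BAK open pores, cytochrome c leaves the mitochondrion and caspases are switched on, while plasma cells are known for their reliance on MCL1, which signals through the receptor BCMA (Tnfrsf17) sustain.

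Libraries were made in bulk from sort-purified CD138+ IgA+ PCs of the small intestine, 1 library per sample and each sample counted as 1 mouse, on the C57BL/6 background, at Zeitgeber time 0 (ZT0, lights on) or 12 hours later (ZT12, lights off). Control mice carried floxed alleles of Arntl, the gene of the clock protein BMAL1, without a Cre (Mb1 Cre-/- x Arntl fl/fl), with 6 mice at ZT0 and 6 at ZT12. Knockout mice carried the same floxed alleles and 1 copy of Mb1 Cre (Mb1 Cre+/- x Arntl fl/fl), with 4 mice at ZT0 and 5 at ZT12. The comparisons asked whether transcripts differed between the times of day and between the genotypes. The Mb1 Cre is a knock-in of the Cd79a locus that is active from early B cell development, so Arntl was floxed in every mouse, was deleted in all B lineage cells of the knockout mice and not in plasma cells alone, and the knockout mice lacked 1 intact Cd79a allele. The ages of the mice were not given in the labels.

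Library totals ran from 14471018 to 22785835 counts, with group medians of 16145273 (control ZT0), 15718576 (control ZT12), 16719245 (knockout ZT0) and 15816121 (knockout ZT12). Levels are given as CPM, counts divided by the library total and put on one common scale, after adjustment by the trimmed mean of M-values (TMM). Defining markers of the sorted cell were abundant in all 21 libraries, with Sdc1 (CD138) at 462 to 708 CPM, Jchain at 37500 to 69800 CPM and Igha at 235000 to 518000 CPM. The mature B cell marker Ms4a1 stayed between 0.436 and 3.34 CPM. In bulk samples, fewer cells of a type and less RNA per cell cannot be told apart.

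Cd79a was at 386 CPM or more in every control and at 276 CPM or less in every knockout. Arntl, counted over all its exons and not only the floxed part, overlapped between genotypes at ZT12 (4.00 to 5.56 CPM in controls, 3.11 to 4.93 CPM in knockouts) and did not at ZT0 (6.83 to 8.36 CPM against 4.08 to 6.47 CPM). The knockout library of ZT0 replicate 3 held reads of both Xist (428 CPM) and the Y-linked gene Ddx3y (20.7 CPM), as did the knockout library of ZT12 replicate 5 (344 and 2.23 CPM). In the other 19 libraries 8 had Xist reads with Ddx3y at 0.145 CPM or less and 11 had Ddx3y at 87.5 to 114 CPM with Xist at 3.51 CPM or less. The members' differences that involve knockout mice were therefore also computed without these 2 libraries, and the values that moved most are given beside them. Immunoglobulin genes took 51.5% to 63.6% of the counts of a library, with group medians of 53.2%, 57.0%, 53.6% and 54.3% in the order above.

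Mcl1 was by far the most abundant member, and it made up almost all of the summed transcript level of the listed pro-survival members. Per gene length, Mcl1 stood at 174.2 ± 19.5 CPM per kilobase (SD, n = 21), at the 98.8th percentile of the genes tested, and exceeded every other member in 21 of 21 libraries. It held 63.0% of the summed level per length of the 10 genes (54.5% to 68.9% over the libraries). Among Mcl1, Bcl2 and Bcl2l1 its share was 94.1% to 97.4%. Bcl2 stood at 4.39 ± 0.864 CPM per kilobase and Bcl2l1 was lowest of all members at 2.37 ± 0.928 CPM per kilobase (SD, n = 21 each).

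Of the death-promoting members, Bcl2l11 came first by the mean over all libraries at 27.8 ± 14.3 CPM per kilobase, followed by Pmaip1 at 20.9 ± 4.01, the effector Bax at 17.8 ± 3.77 and Bbc3 at 14.2 ± 3.93. The lower group was Bmf at 6.23 ± 1.18, the effector Bak1 at 5.57 ± 0.810 and Bid at 4.01 ± 0.650 CPM per kilobase (SD, n = 21 each). The order turned in control ZT0, where the mean of Bcl2l11 (15.58) lay below those of Pmaip1 (20.65) and Bax (17.42 CPM per kilobase). Not every step in this order was clear of the spread. Bcl2l11 exceeded Pmaip1 in 14 of 21 libraries, Pmaip1 exceeded Bax in 15, Bmf exceeded Bak1 in 11 and Bcl2 exceeded Bid in 12, whereas Bax exceeded Bbc3, and Bbc3 exceeded Bmf, in all 21. By its coordinates the gene Bid overlaps Bcl2l13 on the opposite strand (11315 counts over all libraries against 5020 of Bid). Bak1 likewise overlaps Ggnbp1 (1659 against 4702). Whether reads were shared was not measured. The strand setting of the counting is not given in the sources used here, so the levels of Bid and Bak1 are uncertain.

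**Figure D1:**
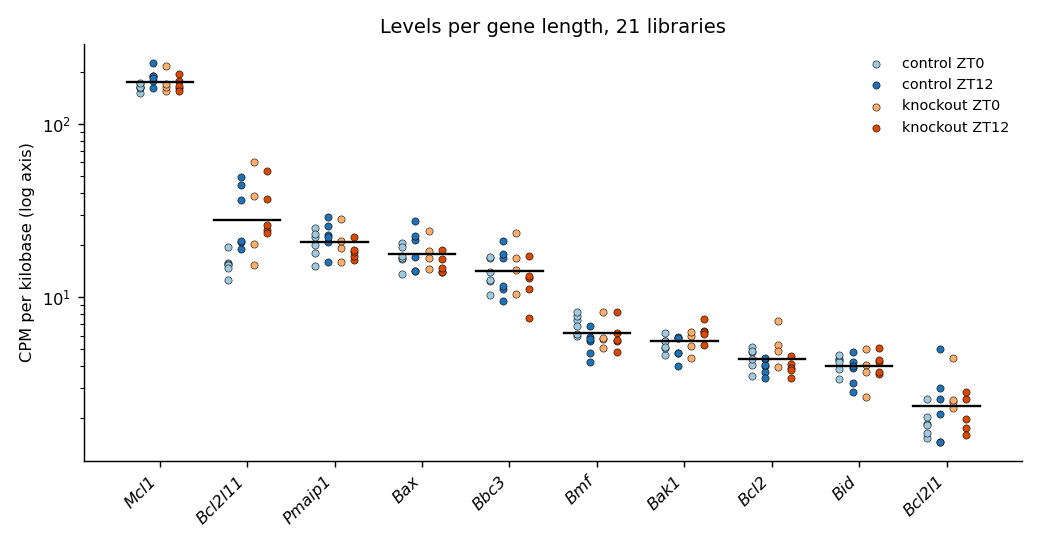
TMM-normalized CPM per kilobase of gene length (log axis) of the 10 BCL2 family genes in 21 libraries, 1 point per mouse coloured by group, with a line at the mean over libraries. Mcl1, at a mean of 174.2, lies above all other members in every library, and Bcl2l11 spans the widest range of the remaining genes, from 12.5 to 60.7.

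No member passed the test in any comparison. In control mice, 0 of 10 members had an adjusted p under 0.05 between ZT12 and ZT0 by edgeR's quasi-likelihood test with Benjamini-Hochberg adjustment over all genes tested, against 1.73% of all genes. With the immunoglobulin share of each library in the model, 0 of the 20256 genes were called in that comparison. At an unadjusted p under 0.05 there were 3 of 10 members, of which Bcl2l11 and Mcl1 were higher and Bmf lower at ZT12, against 18.1% of all genes. DESeq2 called 1 of 10 members, Bcl2l11, against 8.5% of the genes it gave an adjusted p. No member had groups that did not overlap in CPM, against 1.6% of all genes. The median log2 difference of the 10 members was 0.11, and that of all genes tested was 0.01.

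Bcl2l11, at chr2:128126038-128162547 on the + strand (GRCm38), encodes BIM, the BH3-only protein that binds every pro-survival member and restrains lymphocyte survival. In control mice at ZT0 its level was even, at 127, 125, 124, 101, 118 and 156 CPM. At ZT12 the control mice split, with 153, 168 and 169 CPM in 3 mice and 291, 356 and 397 CPM in the other 3. Only the lowest ZT12 mouse lay within the ZT0 range, and the groups overlapped by that 1 mouse. The means were 125.1 ± 17.98 and 255.7 ± 107 CPM (SD, n = 6 each), a log2 difference of 1.03 (SE 0.327, unadjusted p = 0.00566, adjusted p = 0.119 by edgeR). By DESeq2 the difference was 1.06 with an adjusted p of 0.0266, and the adjusted p ranged from 0.0266 to 0.669 over the 13 alternative settings.

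In knockout mice Bcl2l11 was high in some mice at both times. The 4 mice at ZT0 had 487, 124, 308 and 163 CPM and the 5 mice at ZT12 had 197, 427, 211, 188 and 297 CPM. The 2 groups covered much the same range, and the mouse with the highest level of all 21 was a knockout at ZT0. Here the log2 difference of ZT12 against ZT0 was -0.04 (SE 0.376, adjusted p = 0.994), and -0.013 (SE 0.454) without the 2 libraries that held both Xist and Y reads. Leaving out 1 library at a time moved this difference to either side of 0, over a range given in the last section. Knockout mice exceeded controls at ZT0 by a log2 difference of 1.11 (SE 0.357, unadjusted p = 0.00613, adjusted p = 0.926), which was 1.05 (SE 0.408) without those libraries and 0.67 without knockout ZT0 replicate 1. At ZT12 the genotypes differed by 0.05. The difference between the time effects, given by the interaction term, was -1.07 (SE 0.496, unadjusted p = 0.0456, adjusted p = 0.455). It was -1.05 (SE 0.567, unadjusted p = 0.0848) without the 2 libraries and -0.63 without knockout ZT0 replicate 1.

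The high values of Bcl2l11 did not gather in 1 group. Ordered by level, the 21 libraries left a gap between 14 at 101 to 211 CPM and 7 at 291 to 487 CPM. The upper 7 were 3 control mice at ZT12, 2 knockouts at ZT0 and 2 knockouts at ZT12, and no control at ZT0 was among them. The table's columns pass 3 times through the groups, and the control difference of ZT12 against ZT0 within each pass was 0.90, 1.64 and 0.11 on the log2 scale. What these passes stand for is not given in the sources used here. The first pass held 7 libraries with Xist reads alone, the second 6 with Ddx3y and 1 with both, and the third 5 with Ddx3y, 1 with Xist and 1 with both.

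**Figure D2:**
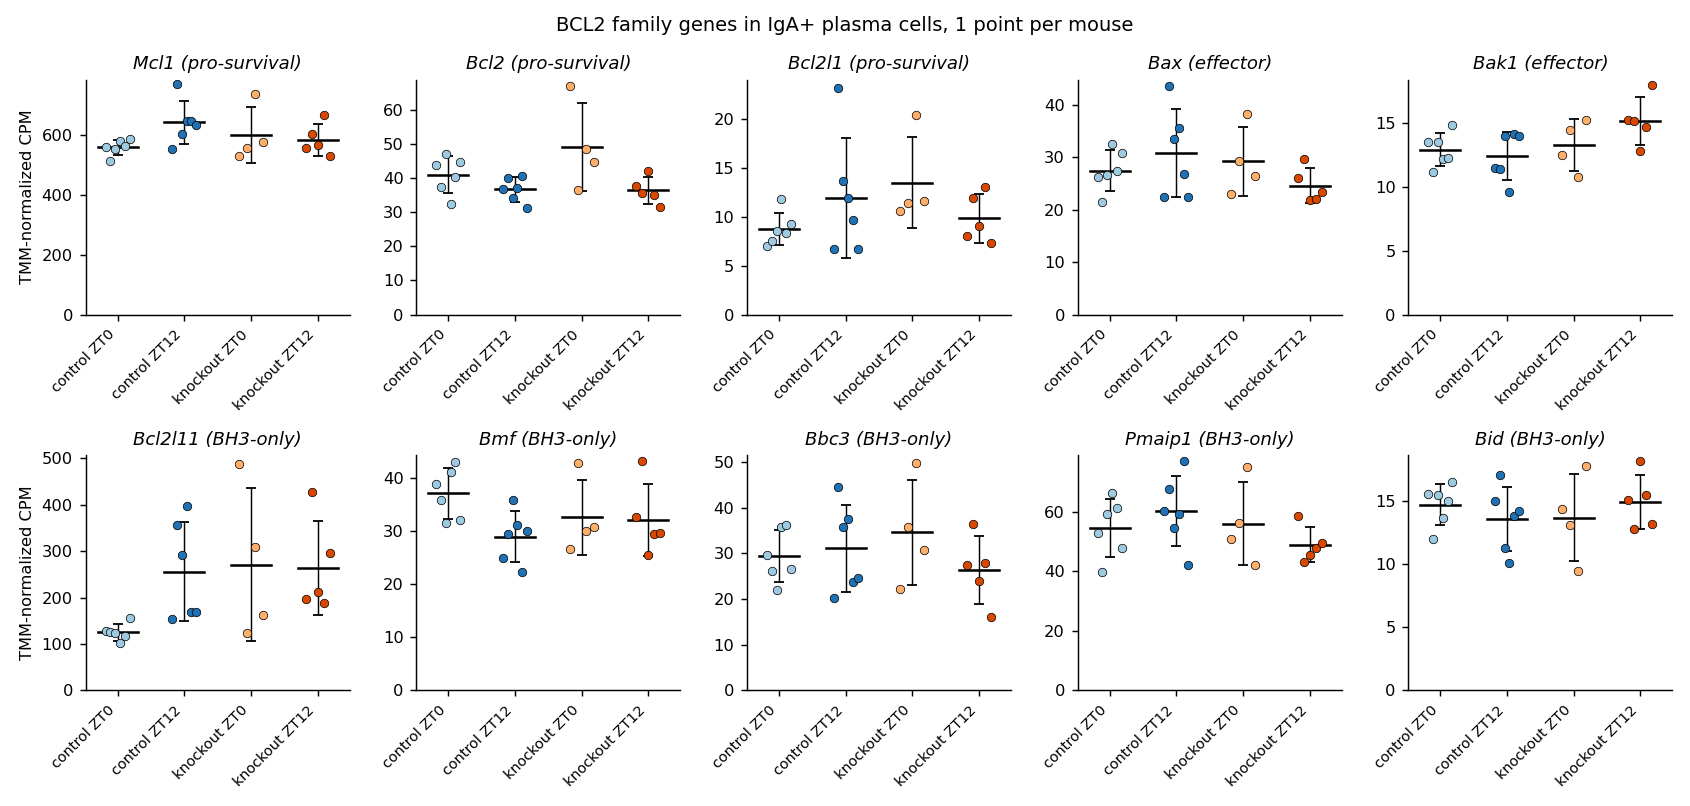
TMM-normalized CPM of each of the 10 BCL2 family genes in control and knockout mice at ZT0 and ZT12, 1 point per mouse, with the group mean and SD (n = 6, 6, 4 and 5). Bcl2l11 is tight in control mice at ZT0 (101 to 156 CPM) and reaches 397, 487 and 427 CPM in the other 3 groups, and the groups of all 10 members overlap by time and by genotype.

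Bmf, at chr2:118528757-118549687 on the - strand (GRCm38), encodes a BH3-only protein that is held at the cytoskeleton in healthy cells. Its levels in control mice were 31.5 to 43.0 CPM at ZT0 (median 37.4) and 22.3 to 35.8 CPM at ZT12 (median 29.8). Of the 6 mice at ZT12, 5 lay below every mouse at ZT0. The means were 37.1 ± 4.74 and 29.0 ± 4.78 CPM (SD, n = 6 each), a log2 difference of -0.36 (SE 0.132, unadjusted p = 0.0117, adjusted p = 0.158). The difference had the same sign in each pass through the groups, at -0.38, -0.33 and -0.31.

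For Bmf in knockouts, the 4 mice at ZT0 had 26.7, 42.9, 30.1 and 30.7 CPM, whereas ZT12 gave 32.6, 43.2, 25.4, 29.4 and 29.6 CPM in 5 mice. The 2 groups covered the same range. Their log2 difference was -0.02 (-0.033 without the 2 libraries with both Xist and Y reads), and the interaction was 0.33 (SE 0.202, adjusted p = 0.535).

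Mcl1, at chr3:95658788-95663176 on the + strand (GRCm38), had 512 to 586 CPM in control mice at ZT0 (median 560) and 553 to 770 CPM at ZT12 (median 638). The highest mouse, control ZT12 replicate 2 at 770 CPM, was also the library with the largest immunoglobulin share (63.6%). The means were 557.7 ± 26.2 and 640.8 ± 72.4 CPM (SD, n = 6 each), a log2 difference of 0.20 (SE 0.0947, unadjusted p = 0.0437, adjusted p = 0.261). Over the 21 libraries the level of Mcl1 followed the immunoglobulin share with an r of 0.83, and with that share in the model the control difference was -0.0024, while it was -0.024 with scaling by library size alone. The part of that share in the result was not tested. The 4 knockouts at ZT0 had Mcl1 levels of 528, 556, 737 and 577 CPM, and the 5 at ZT12 had 554, 601, 566, 666 and 528 CPM, a log2 difference of -0.04 that was 0.11 without the 2 libraries with both Xist and Y reads.

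Bcl2, at chr1:106538178-106714274 on the - strand (GRCm38), encodes the founding pro-survival protein. Control mice had 32.3 to 47.0 CPM at ZT0 (median 42.1) and 31.3 to 40.7 CPM at ZT12 (median 36.9), a log2 difference of -0.16. That difference was -0.38 with scaling by library size alone and -0.012 with the gene length trend removed. The 4 knockouts at ZT0 had 67.0, 36.4, 48.6 and 44.8 CPM, and the 5 at ZT12 had 37.7, 35.6, 42.2, 35.0 and 31.4 CPM. The ZT0 range was set by replicate 1, and the knockout groups overlapped. The log2 difference in knockouts was -0.44 (SE 0.137, unadjusted p = 0.0036, adjusted p = 0.506), -0.39 (SE 0.156) without the 2 libraries with both Xist and Y reads and -0.26 without knockout ZT0 replicate 1. Averaged over the genotypes Bcl2 was lower at ZT12 by a log2 difference of -0.30 (SE 0.0905, unadjusted p = 0.00282, adjusted p = 0.116), and its adjusted p ranged from 0.0356 to 0.214 over 12 alternative settings.

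Bcl2l1, at chr2:152780668-152831728 on the - strand (GRCm38), encodes BCL-XL and had few reads, 108 to 382 counts per library. Control mice had 7.07 to 11.8 CPM at ZT0 (median 8.46) and 6.70 to 23.2 CPM at ZT12 (median 10.8), whereas knockouts had 10.6, 11.4, 20.5 and 11.6 CPM in the 4 mice at ZT0 and, in the 5 at ZT12, 8.01, 11.9, 9.08, 13.1 and 7.32 CPM. A single mouse stood above the rest in both control ZT12 and knockout ZT0. The log2 differences of ZT12 against ZT0 were 0.45 in controls (0.15 without control ZT12 replicate 2) and -0.45 in knockouts (-0.18 without knockout ZT0 replicate 3), with an interaction of -0.90 (SE 0.400, unadjusted p = 0.0355, adjusted p = 0.451). Without the 2 libraries with both Xist and Y reads the knockout difference was -0.087 and the interaction -0.54 (SE 0.401, unadjusted p = 0.194), and the interaction was -0.61 without control ZT12 replicate 2. With the immunoglobulin share in the model the control difference turned to -0.16 and the interaction was -0.19, and the part of that share was not tested.

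Neither effector was called in any comparison. Bax, at chr7:45461697-45466898 on the - strand (GRCm38), had group means of 27.4 ± 3.82, 30.7 ± 8.37, 29.2 ± 6.53 and 24.6 ± 3.30 CPM (SD, n = 6, 6, 4 and 5, in the order control ZT0, control ZT12, knockout ZT0, knockout ZT12). Bak1, at chr17:27019810-27029009 on the - strand (GRCm38), had 12.95 ± 1.3, 12.5 ± 1.904, 13.3 ± 2.00 and 15.2 ± 1.88 CPM in that order. All groups of both genes overlapped. At ZT12, knockout mice exceeded controls in Bak1 by a log2 difference of 0.29 (SE 0.123, unadjusted p = 0.0266), and were lower in Bax by -0.32 (SE 0.160, unadjusted p = 0.0572), both with adjusted p-values that missed the threshold. Without the 2 libraries with both Xist and Y reads these were 0.22 (unadjusted p = 0.0865) and -0.30 (unadjusted p = 0.0800), and Bax was at -0.20 without control ZT12 replicate 2. With the immunoglobulin share in the model they were 0.18 for Bak1 and -0.12 for Bax.

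The remaining BH3-only genes gave no difference beyond the spread between mice. Bbc3, at chr7:16308393-16318205 on the + strand (GRCm38), and Pmaip1 are known targets of p53. Bbc3 ran from 16.1 to 49.8 CPM and Pmaip1 from 39.9 to 77.2 CPM over the 21 libraries. Bid, at chr6:120891930-120916853 on the - strand (GRCm38), whose protein links death receptors to the mitochondrion after cleavage by caspase-8, ran from 9.47 to 18.2 CPM. The control differences of ZT12 against ZT0 were 0.08, 0.14 and -0.11 on the log2 scale for Bbc3, Pmaip1 and Bid, and the knockout differences were -0.39, -0.19 and 0.12. Without the 2 libraries with both Xist and Y reads the knockout differences were -0.031, -0.024 and 0.026, so the larger values rested on those libraries.

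**Figure D3:**
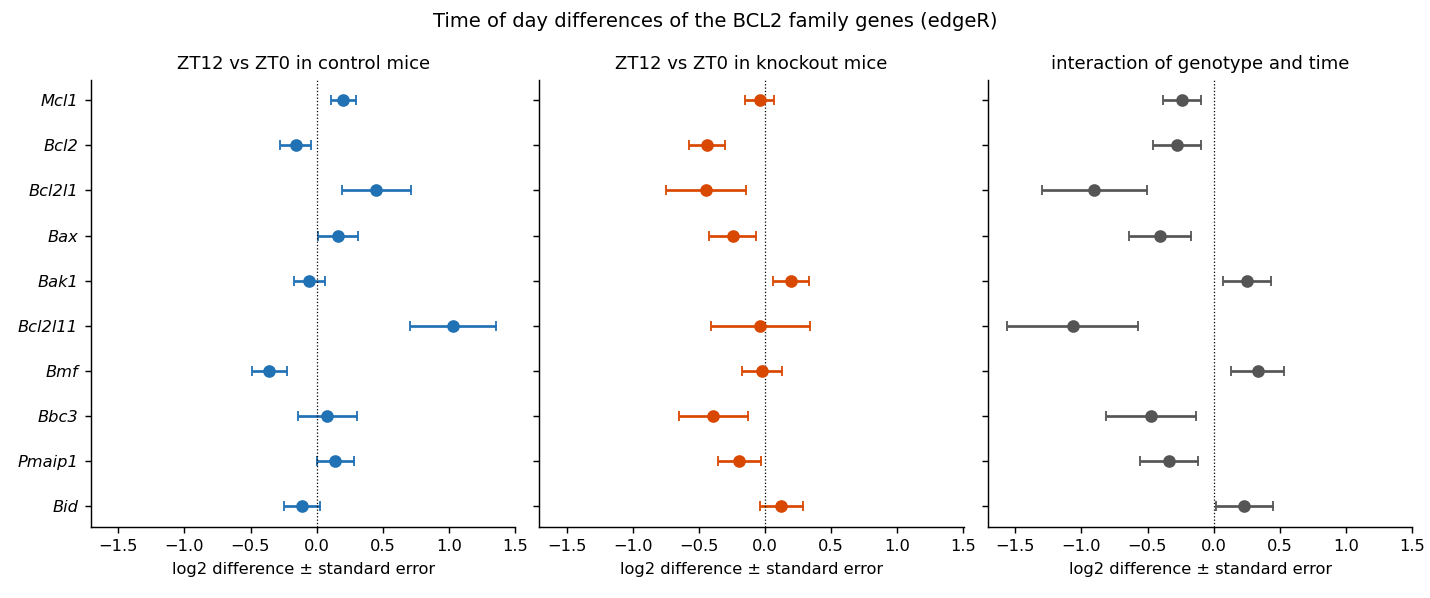
Log2 difference of ZT12 against ZT0 in control mice and in knockout mice, and the interaction of genotype and time, for each BCL2 family gene, with the standard error from edgeR's fit of all 21 libraries. Bcl2l11 has the largest positive difference in controls (1.03) and the largest negative interaction (-1.07, or -0.63 without knockout ZT0 replicate 1), and no member has an adjusted p under 0.05.

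In the knockout mice 0 of 10 members were called between the times by edgeR and 0 by DESeq2, against 0% and 0.319% of all genes, and 1 member, Bcl2, had an unadjusted p under 0.05, against 8.01%. The median member difference was -0.12 (-0.027 without the 2 libraries with both Xist and Y reads) and that of all genes 0.01. The interaction gave 0 of 10 calls by both tools, against 0% and 0.0279%, with 2 members, Bcl2l11 and Bcl2l1, at an unadjusted p under 0.05, against 10.8%, and neither without the 2 libraries with both Xist and Y reads. Its member median was -0.31 (-0.14 without them) and that of all genes 0.01. No member had knockout groups that did not overlap between the times, against 2.63% of all genes.

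Between genotypes, 0 of 10 members were called at either time by edgeR or DESeq2. At ZT0 the shares of all genes were 0.00987% by edgeR and 0.0247% by DESeq2, and Bcl2l11 and Bcl2l1 (2 of 10) had an unadjusted p under 0.05, against 4.9%. These p-values were 0.0214 and 0.247 without the 2 libraries with both Xist and Y reads. At ZT12 the shares were 0.0148% and 0.0574%, and Bak1 (1 of 10) had an unadjusted p under 0.05, against 8.83%. Genotype groups that did not overlap were seen in 0 members at both times, against 0.977% of all genes at ZT0 and 0.38% at ZT12. The member medians were 0.10 at ZT0 (0.026 without those libraries) and -0.07 at ZT12, and those of all genes were -0.01 at both times.

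With the genotypes averaged, 0 of 10 members were called between the times by edgeR and by DESeq2, against 0.805% and 4.76% of all genes. Bcl2 (1 of 10) had an unadjusted p under 0.05, against 15.4%. With the times averaged, 0 of 10 members were called between genotypes, against 0.0346% by edgeR and 0.0687% by DESeq2, and Bcl2l11 (1 of 10) had an unadjusted p under 0.05 at a log2 difference of 0.58 (SE 0.247, unadjusted p = 0.0307, adjusted p = 1), against 4.19%. That difference was 0.35 without knockout ZT0 replicate 1 and 0.52 (unadjusted p = 0.0818) without the 2 libraries with both Xist and Y reads. Besides DESeq2, which called Bcl2l11 in controls, 2 other settings put a member past the threshold. Scaling by library size alone called Bmf between the times in controls (2.2% of all genes called) and Bcl2 with the genotypes averaged (0.992%), and leaving out knockout ZT0 replicate 2 also called Bcl2 there (0.769%).

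The balance between members at the transcript level moved with Bcl2l11. Of the summed level per length of the 5 BH3-only genes, Bcl2l11 held a median of 26.1% in control ZT0 (18.9% to 32.0%), 39.7% in control ZT12 (30.1% to 50.3%), 36.0% in knockout ZT0 (23.6% to 61.0%) and 40.6% in knockout ZT12 (35.1% to 54.0%). Mcl1 exceeded Bcl2l11 per length in every library. The ratio had medians of 10.4, 6.78, 6.96 and 6.31 in the same order, with a lowest value of 2.55 in a knockout mouse at ZT0. These shares follow from the levels given above and add no test.

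Mice of 1 group differed from each other far more in some members than in others. The SD of log2 CPM within groups was 0.567 for Bcl2l11 (96.0th percentile of 7129 genes with a mean log2 CPM of at least 3), 0.466 for Bcl2l1 (94.8th) and 0.407 for Bbc3 (92.9th). The values of Bax, Pmaip1, Bid and Bmf lay between 0.248 and 0.286, those of Bcl2 and Bak1 at 0.217 and 0.193, and Mcl1 was steadiest at 0.144 (16.9th percentile). Among genes of a like level, 1 in 20 exceeded an SD of 1.17 in the bin that holds Bcl2l11, so its spread was above that bin's median of 0.188 without passing that limit. Bbc3 exceeded the 95th percentile of its own bin (0.379), and Bcl2l1 did not (0.490). Bax and Bbc3 deviated together across the 21 libraries (r = 0.80), as did Bcl2l1 with Bax (r = 0.78) and Mcl1 with Bcl2l1 (r = 0.77), over libraries that differ in depth and in immunoglobulin share.

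**Figure D4:**
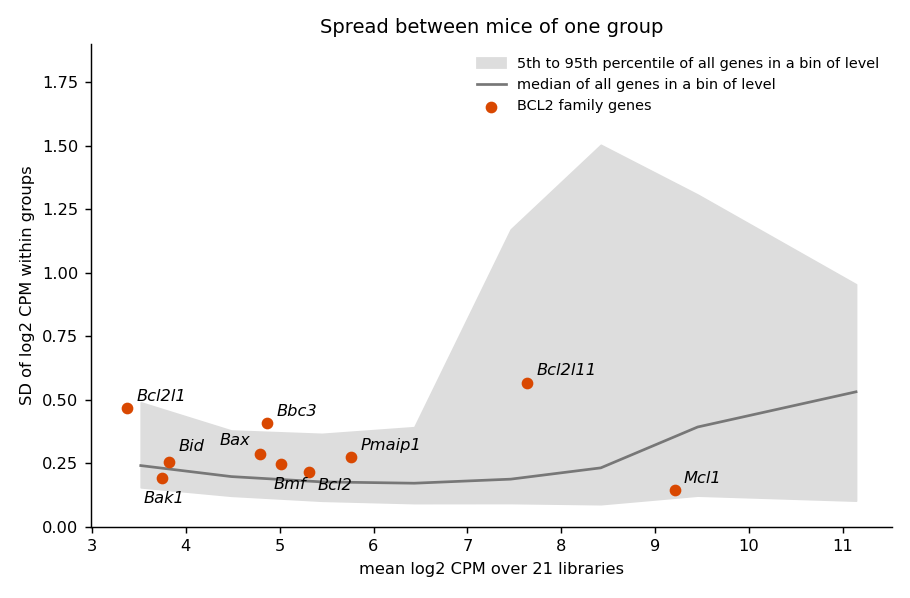
SD of log2 CPM between mice of 1 group against mean log2 CPM, for the BCL2 family genes (points) and for all genes in bins of level (line at the median, grey from the 5th to the 95th percentile). Bcl2l11 (0.567) lies above the median of its bin, Bbc3 (0.407) lies above the grey and Mcl1 (0.144) close to its lower edge.

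The genes whose levels followed Bcl2l11 most closely over the 21 libraries were St14, a membrane serine protease (r = 0.95), Hepacam2, a member of the immunoglobulin superfamily (r = 0.92), and Idh2, the mitochondrial isocitrate dehydrogenase (r = 0.91). Those that ran most opposed, chosen after their values were seen, were Pik3r6, a regulatory subunit of phosphoinositide 3-kinase gamma (r = -0.97), Fcgr2b, the inhibitory Fc receptor (r = -0.94), and Erc1 (r = -0.90). The libraries fell into the lower 14 and upper 7 described above, so the correlation was also taken inside each. It was 0.89 and 0.83 for St14, 0.41 and 0.76 for Hepacam2, 0.86 and 0.25 for Idh2, -0.83 and -0.86 for Pik3r6, -0.76 and -0.53 for Fcgr2b and -0.83 and -0.33 for Erc1, in the lower and the upper libraries. The genes were chosen on these same libraries and the sets were split by the level of Bcl2l11 itself, so these values are a description. Of the 6 genes, Idh2 was called between the times in control mice, higher at ZT12 by a log2 difference of 0.62 (SE 0.141, adjusted p = 0.0301), a call lost with the immunoglobulin share in the model.

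**Figure D5:**
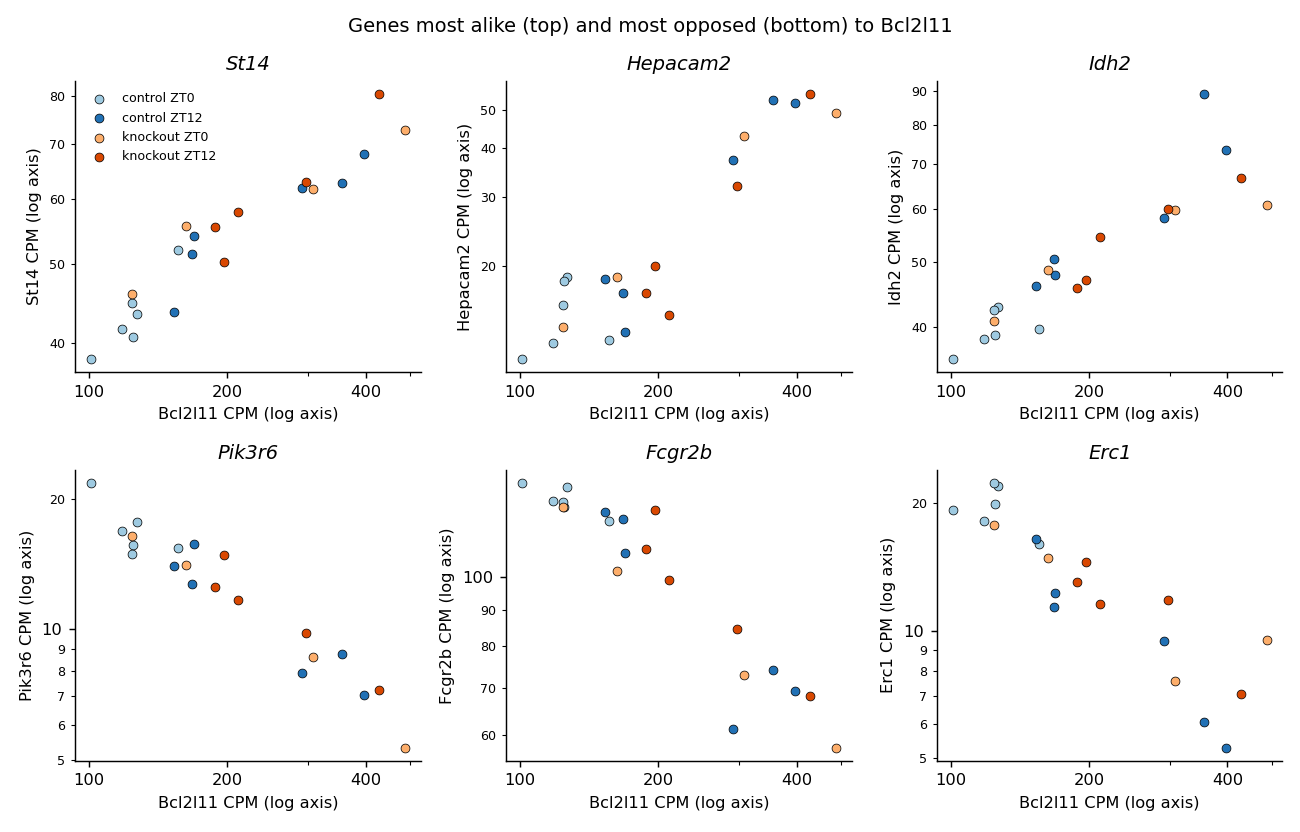
CPM of the 3 genes most alike (top) and the 3 most opposed (bottom) to Bcl2l11 against the CPM of Bcl2l11, both on log axes, 1 point per mouse coloured by group (21 libraries). The knockout and control mice with the highest Bcl2l11 also have the highest St14 and the lowest Pik3r6 (r = 0.95 and -0.97), while control mice at ZT0 sit together at the other end.

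Bmf was most alike to Irf2bpl (r = 0.78) and to Sqle and Hmgcs1, enzymes of cholesterol synthesis (r = 0.77 and 0.76). Sqle and Hmgcs1 fell at ZT12 in control mice, by log2 differences of -0.75 (SE 0.128, adjusted p = 0.00606) and -1.06 (SE 0.249, adjusted p = 0.0414), and neither was called with the immunoglobulin share in the model. Mcl1 was most alike to Galk1, Aurkaip1 and Bud31 (r = 0.89, 0.88 and 0.87). All of these correlations run over libraries that differ in group, depth and immunoglobulin share, and are given as a description.

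Some markers of other cells varied with Bcl2l11 or with the time of day. Of the eosinophil markers 4 of 5 were in the table and summed to 38.3 to 204 CPM (median 68.4), highest in control ZT12 replicate 4, with an r of 0.68 to Bcl2l11 over 21 libraries. Their sum was mostly Prg2 (mean 86.7 CPM), Epx stayed at 0.0638 CPM or less and Ccr3 at 0.363 CPM or less. Il5ra ran from 0 to 34.9 CPM (median 1.83), highest in control ZT12 replicate 2, which was among the upper 7 libraries of Bcl2l11. The 9 epithelial markers summed to 52.0 to 681 CPM (median 73.9, r = 0.35), with Epcam the most abundant by its median (60.3 CPM). In the highest library, control ZT12 replicate 5, the keratin gene Krt8 (233 CPM) exceeded Epcam (130 CPM), and Krt19 and Vil1, a gene of the brush border, were at 116 and 70 CPM. The 5 stromal markers summed to 19.7 to 44.1 CPM (median 34.8, mostly Pecam1, r = -0.68). The 8 markers of other B cells summed to 103 to 174 CPM (mostly Ptprc, r = -0.63) and the 8 T cell markers to 12.5 to 29.9 CPM (mostly Cd4, r = 0.24). The 8 myeloid markers summed to 16 to 103 CPM (r = -0.48), with Csf1r, Lyz2 and C1qa at medians of 15.1, 14.4 and 12.7 CPM. The 10 genes of the response to tissue dissociation summed to 2490 to 8940 CPM (mostly Fosb, r = 0.33), highest in knockout ZT0 replicate 3, and the 8 plasma cell markers to 282000 to 594000 CPM (mostly Igha, r = 0.32). No listed gene in the table was at 0 in every library.

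In the control time comparison, which also holds the difference in Bcl2l11, all tested genes of 4 of these lists (epithelial, eosinophil, dissociation and stromal) leaned 1 way within their list. The shares of all genes at an unadjusted p under 0.05 with all 21 libraries were 18.1% in controls, 8.01% in knockouts and 15.4% with the genotypes averaged. They were 10.8% for the interaction, and 4.9% at ZT0 and 8.83% at ZT12 between genotypes. All 9 epithelial markers were at higher values at ZT12 in controls (median log2 difference 2.45, 5 of 9 at an unadjusted p under 0.05) and in knockouts (2.47, 0 of 9), and with the genotypes averaged 9 of 9 had an unadjusted p under 0.05. In knockouts at ZT12 the sums were 78, 159, 73.9, 63.2 and 413 CPM, against 65.9 to 81.2 CPM at ZT0, so that replicates 5 and 2 stood above the rest. Without the 2 libraries with both Xist and Y reads, of which replicate 5 is 1, the knockout median was 1.29, and 3 of 9 had an unadjusted p under 0.05 with the genotypes averaged. By edgeR 0 were called, whereas DESeq2 called 2 of 7 in controls (Epcam and Krt18, against 8.5% of all genes) and 4 of 7 with the genotypes averaged (Krt8, Krt18, Krt19 and Vil1, against 4.76%). Without control ZT12 replicate 5 the control median was 0.675, with 1 of 9 at an unadjusted p under 0.05. All 10 dissociation genes were at higher values at ZT12 in controls (median 0.83, 4 of 10 at an unadjusted p under 0.05, 0 called by either tool). In knockouts 7 of 10 were at lower values at ZT12 (median -0.59). There 6 of 10 had an unadjusted p under 0.05, of which 4 were lower and 2 higher. The dissociation genes had 7 of 10 at an unadjusted p under 0.05 for the interaction (median -1.24) and 7 of 10 between genotypes at ZT12 (median -0.76), with 0 called by either tool. These were 2 of 10 in knockouts (median -0.17), 2 of 10 for the interaction (-0.90) and 7 of 10 at ZT12 (-0.78) without the 2 libraries with both Xist and Y reads. The 3 eosinophil markers tested were at higher values at ZT12 in controls (median 1.15), with 1 at an unadjusted p under 0.05 (Il5ra, 2.99, SE 1.23, adjusted p = 0.211) and 0 called by either tool. Their interactions were negative in 2 of 3 (median -1.215, 1 at an unadjusted p under 0.05). Knockouts at ZT0 had higher values than controls in 2 of 3 (median 0.663, 1 at an unadjusted p under 0.05). All 5 stromal markers were at lower values at ZT12 in controls (median -1.55), and 1, Pecam1, an adhesion molecule of endothelium and of some blood cells, fell by a log2 difference of -0.51 (SE 0.136, adjusted p = 0.0494), a call lost without control ZT12 replicate 5 and in 7 of 13 other settings, the immunoglobulin share among them. The markers of other B cells were at lower values at ZT12 in 7 of 8 in controls (2 at an unadjusted p under 0.05) and in 7 of 8 in knockouts. The stromal markers had 5 of 5 positive interactions (median 1.83, 2 at an unadjusted p under 0.05), and the T cell markers were at higher values in knockouts at ZT12 in 8 of 8 (median 1.39, 0 at an unadjusted p under 0.05), with 0 of these called. The control difference of Bcl2l11 was 0.86 to 1.15 whichever library was left out. The part of any of these markers in the levels of Bcl2l11 or in the interactions of Bcl2l11 and Bcl2l1 was not tested.

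Upstream sequence was read for the members from RefSeq (GRCm38.p6), in the 250 bases before each annotated start. A start was matched for 9 of the 10 members, with 16 windows among 32851. The letters searched on both strands were the E-box CACGTG, which CLOCK and BMAL1 bind (in 6.02% of all windows), the D-box TTATGNAA of DBP and NFIL3 (3.07%), AGGTCA of REV-ERB and ROR (14%), the sterol element TCACNCCAC (1.05%) and TGTTTAC of FOXO factors (3.17%). Of the members whose values are described above, 3 windows upstream of the gene are shown (that of Bmf shares 1 base with it), with the match in capitals. Bcl2l11, chr2:128125788-128126037 on the + strand, holds the FOXO letters read on the reverse strand, 227 to 221 bases before the start. Bmf, chr2:118549687-118549936 on the - strand, holds AGGTCA 140 to 135 bases before the start. Bax, chr7:45466899-45467148 on the - strand, holds the E-box 9 to 4 bases before the start.
Bcl2l11: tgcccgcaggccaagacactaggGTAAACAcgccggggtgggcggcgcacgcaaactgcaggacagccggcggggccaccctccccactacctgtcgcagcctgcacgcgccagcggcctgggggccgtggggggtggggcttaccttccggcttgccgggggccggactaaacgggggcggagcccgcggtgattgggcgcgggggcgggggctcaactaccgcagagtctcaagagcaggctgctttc
Bmf: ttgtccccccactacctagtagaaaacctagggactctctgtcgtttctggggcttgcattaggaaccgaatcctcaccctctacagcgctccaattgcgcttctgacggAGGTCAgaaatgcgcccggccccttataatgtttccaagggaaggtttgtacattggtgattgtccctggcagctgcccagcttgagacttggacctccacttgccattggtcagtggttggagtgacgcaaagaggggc
Bax: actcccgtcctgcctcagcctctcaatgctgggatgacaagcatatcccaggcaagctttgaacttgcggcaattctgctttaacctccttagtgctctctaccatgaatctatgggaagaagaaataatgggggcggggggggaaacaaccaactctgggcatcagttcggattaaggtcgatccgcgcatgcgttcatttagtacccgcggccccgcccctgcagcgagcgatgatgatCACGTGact

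No letters of these 5 motifs were found in the windows of Mcl1, Bcl2, Bid and Bak1. A window of Bcl2l1 that lies inside the gene held AGGTCA, and 2 windows of Bbc3 that also lie inside the gene held the FOXO letters and the E-box. A match is a run of letters in a window and was not tied to any measurement here.

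Around the family, few other genes of the pathway passed the test by edgeR. The counts in controls below stand against 1.73% of all genes called and 18.1% at an unadjusted p under 0.05, and those with the genotypes averaged against 0.805% called. The counts by DESeq2 stand against 8.5% of the genes it gave an adjusted p in controls and 4.76% with the genotypes averaged. Of the other BCL2 relatives, 13 of 15 were tested and 0 were called by edgeR in any comparison. In the control time comparison 3 of the 13 had an unadjusted p under 0.05, all at higher values at ZT12, among them Bad, a BH3-only gene (log2 difference 0.52, SE 0.172, adjusted p = 0.116). DESeq2 called Bad there (0.55, adjusted p = 0.0328) and no other relative in any comparison. Bcl2l2, the pro-survival BCL-W, stood at 3.37 CPM per kilobase, a level between Bcl2 and Bcl2l1. The relatives with the smallest p in the other comparisons were Bcl2l15 (-0.77 in knockouts, -1.09 for the interaction and 0.43 between genotypes at ZT0), Bik (-1.60 between genotypes at ZT12), Bad (0.26 between times, averaged) and Bnip3 (-0.55 between genotypes, averaged), each with an adjusted p of 0.342 or more.

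Of 17 genes of caspase activation 1 was called by edgeR. Birc3, which encodes the inhibitor of apoptosis cIAP2, had 137.8 ± 19.6 CPM in control ZT0 and 108.8 ± 6.59 CPM in control ZT12 (SD, n = 6 each), and 139.2 ± 12.97 CPM in knockout ZT0 (n = 4) and 110.5 ± 12.3 CPM in knockout ZT12 (n = 5). It fell at ZT12 with the genotypes averaged, by a log2 difference of -0.34 (SE 0.0749, adjusted p = 0.0252), with -0.34 in controls (adjusted p = 0.0708, but called there by DESeq2 at -0.32 with an adjusted p of 0.0203 and with scaling by library size alone at 0.0288) and -0.33 in knockouts (adjusted p = 0.548). The call was lost with the replicate number as a block (adjusted p = 0.0615) and without the 2 libraries with both Xist and Y reads (-0.30, adjusted p = 0.0600). Apaf1, the scaffold of the apoptosome, had an interaction of 0.53 (adjusted p = 0.442), and Endog, a mitochondrial nuclease, had the smallest p of the list between genotypes (-0.31 at ZT0, -0.67 at ZT12 and -0.49 averaged, adjusted p = 0.562 or more).

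None of 9 genes of the death receptor route was called by edgeR, and Tnfrsf1a, a receptor for tumour necrosis factor, had the smallest p in controls (0.77 higher at ZT12, SE 0.232, adjusted p = 0.0862). DESeq2 called it there (adjusted p = 0.0203), as did edgeR with the column pass as a block (adjusted p = 0.0494). In controls 3 of the 9 had an unadjusted p under 0.05. The genes with the smallest p elsewhere were Tnfrsf10b (-0.98 in knockouts and -1.37 for the interaction), Traf2 (0.44 between genotypes at ZT0), Tradd (-0.38 at ZT12), Tnfrsf1a (0.52 between times, averaged) and Casp8 (0.10 between genotypes, averaged), at adjusted p-values of 0.162 or more. Of the genes that turn over MCL1 protein 8 of 9 were tested and 0 called by edgeR or DESeq2, with 4 of 8 at an unadjusted p under 0.05 in controls, and Gsk3b, whose kinase marks MCL1 for degradation, at -0.43 (adjusted p = 0.199), which was -0.041 with the immunoglobulin share in the model. Gsk3b also had the smallest p for the interaction (0.71, and 0.32 with that share in the model) and between genotypes at ZT12 (0.41), as did the stress kinase genes Mapk8 in knockouts (-0.47) and between genotypes at ZT0 (0.45) and Mapk9 between times averaged (-0.19), and the ubiquitin ligase gene Fbxw7 between genotypes averaged (0.08), at adjusted p-values of 0.306 or more. Scaling by library size alone called Mapk9 in controls. Of 16 transcription regulators of the family 0 were called by edgeR, with 6 at an unadjusted p under 0.05 in controls, whereas DESeq2 called 4 there (Cdkn1a, Ddit3, Xbp1 and Prdm1) and edgeR with the column pass as a block called 2 (Ddit3 and Atf4). Cdkn1a, a p53 target, was at 0.61 in controls (SE 0.199, adjusted p = 0.110, and 0.0425 by DESeq2). Irf4, a plasma cell factor, was at -0.27 with the genotypes averaged (adjusted p = 0.176), and was called there with the column pass as a block (-0.30, adjusted p = 0.0308) and with the Xist level in the model (-0.31, adjusted p = 0.0486). Foxo3, which encodes a FOXO factor, had an interaction of 0.55 (adjusted p = 0.442). Dbp in knockouts (-0.75), Trp73 between genotypes at ZT0 (0.55) and averaged (0.27) and Atf4 between genotypes at ZT12 (-0.36) had adjusted p-values of 0.562 or more.

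Among 10 survival receptors 1 was called in controls by edgeR, and DESeq2 called 3 (Il10ra, Cxcr4 and Igf1r). Il10ra, a chain of the interleukin-10 receptor, rose at ZT12 from 1.82 ± 0.681 to 4.14 ± 1.76 CPM (SD, n = 6 each), a log2 difference of 1.18 (SE 0.310, adjusted p = 0.0479). The call was lost in 15 of 21 fits that left out 1 library and in 5 other settings. The difference itself ranged from 0.947 to 1.205 over 13 other settings. The interaction of -1.47 missed the threshold (unadjusted p = 0.00394, adjusted p = 0.442). Tnfrsf17, the receptor BCMA, stood at 108.6 CPM per kilobase and Tnfrsf13b, the receptor TACI, at 115.6 CPM per kilobase, both far above Il10ra at 0.929, and neither was called by edgeR or DESeq2. Il5ra, which is also on the list of eosinophil markers, had the smallest p of the list in knockouts (-1.99) and between genotypes at ZT12 (-2.0), values that were -0.78 and -0.79 with the column pass as a block, Il10ra between genotypes at ZT0 (1.13), Igf1r between times averaged (0.51) and Il6st between genotypes averaged (0.27), at adjusted p-values of 0.342 or more. Of the 44 differences computed for genes of these pathway lists, 26 moved by over 1.5 times in at least 1 other setting, most often with the immunoglobulin share in the model (13 of 44).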

How the data were processed

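Bulk RNA-seq of sorted plasma cells from 21 mice (12 control, 9 knockout) was analysed, 1 library per sample and each sample counted as 1 mouse, grouped by the titles in the labels; the genotype field of 8 knockout samples names the control genotype. The authors deposited 1 table of raw gene counts with Ensembl identifiers, lengths and coordinates. The aligner, counter and build are not given in the sources used here, and the coordinates were matched to GRCm38 annotation (same coordinates for 52105 of 53706 matched genes). The BCL2 family members and all gene lists were chosen with earlier results of these data known, and the lists give no independent support.

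Counts were tested with edgeR 4.0.16 (R 4.3.3) by the quasi-likelihood test, with TMM scaling, robust dispersions, genes of at least 10 counts in total and 1 fit of the 4 group means. Adjusted p-values are Benjamini-Hochberg values over 20256 genes, called under 0.05. DESeq2 1.42.0, which the methods of the study used, was an alternative, with other scalings, filters, covariates and each library left out. Named genes were the 10 members, genes of 6 pathway lists that were called or had the smallest p in a comparison, and the 3 genes most alike to each of the 3 members with the smallest p in controls. Levels for correlations are log2 CPM with a prior count of 2 and a mean of at least 3. The test was checked on simulated data. No libraries of the same group were duplicates of each other (chi-square per gene 29.5 to 242 over 46 pairs within groups). Pairs of libraries from different groups were not compared. The p-values weigh a difference between groups against the spread between libraries within groups, each library counted as 1 mouse.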

Additional observations from a re-analysis of the deposited data

Results flagged for a closer look

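Bcl2l1 stood at 20.5 CPM in knockout ZT0 replicate 3, far from the other 3 mice of that group at 10.6 to 11.6 CPM, the only 1 of 40 combinations of member and group with such a gap, where chance gives about 1 in 20. That library also held reads of both sexes, with Ddx3y at 20.7 CPM beside Xist at 428 CPM. Knockout ZT12 replicate 5 had Ddx3y at 2.23 CPM beside Xist at 344 CPM. Libraries with Xist and no mixture had Ddx3y at 0.145 CPM or less, and whether more than 1 mouse gave RNA to these 2 libraries was not tested.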

How the results depend on the processing

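Over 88 results and 2957 values under other settings, 2883 kept their direction and their side of the threshold. DESeq2 called 1052 genes between the times in controls against 350 by edgeR, 664 against 163 with the genotypes averaged and 47 against 0 in knockouts, and 1 member in controls (Bcl2l11, 1.06). Scaling by library size alone, which moved the median of all genes with a mean log2 CPM of at least 3 from -0.016 to -0.22 in controls, called 1 member in controls (Bmf, -0.56, adjusted p = 0.0481, range over settings 0.0481 to 0.685) and 1 with the genotypes averaged (Bcl2, -0.42, adjusted p = 0.0356). It turned the control differences of Mcl1 (-0.024), Bax (-0.081), Bbc3 (-0.15) and Pmaip1 (-0.078). With the immunoglobulin share in the model the control differences turned for Mcl1 (-0.0024), Bcl2l1 (-0.16), Bax (-0.14), Bak1 (0.12), Bbc3 (-0.28) and Pmaip1 (-0.10), and the knockout difference of Bcl2l11 was 0.0020. The latter was 0.011 with the Xist level and 0.13 with the pass through the columns in the model, where Bmf in knockouts was 0.092. Without the gene length trend Bax (-0.039) and Bbc3 (-0.056) turned in controls, and Bcl2l11 between genotypes at ZT12 (-0.094). Without the 2 libraries with both Xist and Y reads the knockout differences of Mcl1 (0.11) and Il10ra (0.066) turned. The cause of these turns was not tested, and none of the turned values had passed the threshold. The settings with the column pass and without the 2 libraries were chosen after seeing the data. With immunoglobulin genes removed from the totals the levels per length were larger by construction, at 388 for Mcl1, 61.9 for Bcl2l11, 46.5 for Pmaip1, 39.6 for Bax, 31.6 for Bbc3, 13.9 for Bmf, 12.4 for Bak1, 9.78 for Bcl2, 8.94 for Bid and 5.28 for Bcl2l1 CPM per kilobase.

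Leaving out 1 library at a time gave 0 to 1 members called with the genotypes averaged (Bcl2, -0.36, adjusted p = 0.0444, without knockout ZT0 replicate 2) and 0 in the other comparisons. It turned differences near 0, which ranged from -0.096 to 0.0075 (Bak1) and -0.050 to 0.18 (Bbc3) in controls, from -0.10 to 0.074 (Mcl1), -0.29 to 0.41 (Bcl2l11), -0.16 to 0.12 (Bmf) and -0.017 to 0.26 (Bid) in knockouts, and from -0.20 to 0.22 (Bcl2l11) between genotypes at ZT12. Samples with the same number did not deviate together (median r -0.043 over 28 pairs, 6 above 0.1, and 5 of 21 libraries correlated best with their own number). Libraries of the same column pass did so more (median r 0.14, against -0.077 between passes), and the passes differ in sex. With the replicate block 0 members were called in any comparison, and Bcl2l11 in controls was 1.03 with an adjusted p of 0.229. Of 44 member differences, 34 moved by over 1.5 times in at least 1 setting, 24 with scaling by library size alone, 21 with the immunoglobulin share and 18 without the 2 libraries. Differences in Bcl2l1 rest on as few as 108 counts in a library.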
